A study of Mus musculus with 4 samples.

Results

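The genes described here encode proteins stored in the secondary (specific) and tertiary (gelatinase) granules of neutrophils, or made with them late in neutrophil maturation. The 10 listed genes were Ltf, Camp, Ngp, Lcn2, Mmp8, Mmp9, Cd177, Hp, Slpi and Retnlg. They were found through the RefSeq accession that each array probe carries, and all 10 were on the array, with 11 probes among 20284 named genes and 55678 probes. The study compared 4 blood-forming cell fractions sorted from the marrow of female C57BL6 mice aged 8 weeks, and each fraction was hybridised to 1 Agilent array of a single colour. The long-term stem cells, LT-HSC, carried the phenotype CD34-ckit+Sca1+Lineage-, that is without CD34 and lineage markers and with c-Kit and Sca-1. Short-term stem cells (ST-HSC) were CD34+ckit+Sca1+Lineage-. Progenitors were labelled ckit+Lineage-, while the protocol shared by all samples also writes Sca1- and Lineage+ in naming them, so their exact gate is uncertain. Differentiated cells were Lineage+ (Lin+), a gate that holds several mature cell types. No treatment is given for any fraction, and the labels do not say how many mice each came from.

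Neutrophils make their granules in sequence. The primary granules, with myeloperoxidase and serine proteases, form first in promyelocytes, the secondary granules follow in myelocytes and metamyelocytes, and the tertiary granules form last, in band cells. A protein goes to a granule largely by the stage at which its gene is transcribed, and the transcription factor C/EBP epsilon is required for the secondary granule genes in mice and humans. The stored proteins bind iron, kill microbes and cut matrix when the granules are released.

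Values below are processed spot signals divided by the 75th percentile of the same array, so a value of 1 equals that percentile. Differences are on the log2 scale, and the ± beside one is the error of the spot measurement from the scanner software, with no part from variation among mice. With 1 array a fraction there were no replicates, and p-values could not be computed. The call used for counts was a difference of 2-fold or more in a gene well above background in either fraction. Where 1 side was not well above background, the difference has only a bound, written as at least N-fold and computed against the higher of that probe's own signal and the lowest well-above-background signal of the array (between 0.0906 on the Lin+ array and 0.137 on the progenitor array). Where the probe's own signal was the higher, as for Retnlg in ST-HSC, the value is an estimate and is not written as at least. The 75th percentile itself ranged over the arrays between 137 (progenitors) and 230.4 intensity units (Lin+ cells), and between 40.9% and 45.9% of probes were well above background. The median gene of Lin+ cells against progenitors lay at -0.42 with this scaling and at 0.19 with spike-in scaling, so calls near 2-fold in that comparison depend on the scaling. In sorted bulk RNA, fewer cells of a type and less RNA per cell cannot be told apart.

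The Lin+ label was set against neutrophil markers and against markers of the other cells the gate holds. Of 6 neutrophil markers found on the array, 4 were called higher in Lin+ cells than in progenitors and 0 lower, among them Fpr1, a formyl peptide receptor, by at least 185-fold. Csf3r, the receptor of the neutrophil growth factor G-CSF, had 117, 140.4, 167 and 172 in LT-HSC, ST-HSC, progenitors and Lin+ cells. Itgam, which encodes CD11b, had 3 probes that disagreed. The brightest gave 36.0, 32.6, 28.4 and 33.6 in that order, while the other two were highest in Lin+ cells, with 0.175, 0.314, 0.310 and 4.29 for one and 0.0663, 0.102, 0.141 and 0.711 for the other, which was well above background in Lin+ cells alone. Ly6g had no named probe. Also called higher in Lin+ cells than in progenitors were 7 of 7 B cell markers, 5 of 7 T and NK cell markers, 4 of 6 erythroid markers, 3 of 5 monocyte markers, 5 of 7 marrow macrophage markers and 4 of 6 markers of basophils, mast cells and eosinophils. Of the T and NK cell markers 1 was called lower, Nkg7, with 168 in progenitors and 81.3 in Lin+ cells. Over all genes tested in that comparison, 14.6% were called higher and 26.4% lower. The summed signal of the neutrophil markers was 160.3 (LT-HSC), 179.6 (ST-HSC), 363 (progenitors) and 3567 (Lin+ cells). In the same order that of the erythroid markers was 8.84, 1.22, 72.8 and 4467, and that of the B cell markers 18.6, 19.9, 22.1 and 413. The sum of the T and NK cell markers was 53.6, 88.4, 180 and 162. Most of the neutrophil sum in Lin+ cells came from S100a9 (1965) and S100a8 (1367). S100a8, S100a9, Fpr1 and Itgam are also on the list of other late neutrophil genes described below, so these lists are not independent. Megakaryocyte markers were called lower for 6 of 6. The part of these other cells in the granule gene signal was not tested.

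Promoters of 8 of the 10 genes were in the RefSeq promoter table of build GRCm38.p6, each spanning 250 bases before the transcript start to 50 bases from it. They were searched on both strands for TTGCNNAA, a sequence that C/EBP proteins bind. A match lay in 6 of the 8 promoters (Ltf, Ngp, Lcn2, Mmp8, Slpi and Retnlg), and in 10.8% of all 32851 promoters in the table. Ngp held 2 matches, TTGCCCAA and TTGGGCAA, and Ltf held TTGGGCAA, the same letters as the second match of Ngp. The letters TTGCTCAA lay in both Lcn2 and Mmp8. GAGGAA, the core to which the myeloid factor PU.1 binds, lay on either strand in 4 of 8 member promoters and in 28.3% of all, and TATAAA in 2 of 8 and in 13.6%. The 3 motifs were counted separately, and no match of one overlapped a match of another in these promoters. The promoters of 5 members are printed. Those of Ltf, Ngp and Mmp8 carry the letters closest to the start, Lcn2 shares its letters with Mmp8, and Slpi is the member whose profile over the fractions differed most from that of Ltf. Ltf lies on the plus strand at chr9:111019042-111019341, Ngp on the plus strand at chr9:110419558-110419857, Lcn2 on the minus strand at chr2:32387690-32387989, Mmp8 on the plus strand at chr9:7558179-7558478 and Slpi on the minus strand at chr2:164356458-164356757. Each runs 5′ to 3′ along its gene, and capitals mark the matches to TTGCNNAA on either strand.
Ltf: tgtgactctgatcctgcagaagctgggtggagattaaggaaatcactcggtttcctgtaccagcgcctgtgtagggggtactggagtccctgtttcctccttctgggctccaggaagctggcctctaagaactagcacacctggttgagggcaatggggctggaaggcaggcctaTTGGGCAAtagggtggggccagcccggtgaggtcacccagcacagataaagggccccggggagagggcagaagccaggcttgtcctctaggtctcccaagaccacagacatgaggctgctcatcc
Ngp: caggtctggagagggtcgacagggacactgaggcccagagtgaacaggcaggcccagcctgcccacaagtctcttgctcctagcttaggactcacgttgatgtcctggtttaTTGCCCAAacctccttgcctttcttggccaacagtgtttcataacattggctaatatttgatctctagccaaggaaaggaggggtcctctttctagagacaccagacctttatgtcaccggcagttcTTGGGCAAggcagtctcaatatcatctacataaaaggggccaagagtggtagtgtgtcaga
Lcn2: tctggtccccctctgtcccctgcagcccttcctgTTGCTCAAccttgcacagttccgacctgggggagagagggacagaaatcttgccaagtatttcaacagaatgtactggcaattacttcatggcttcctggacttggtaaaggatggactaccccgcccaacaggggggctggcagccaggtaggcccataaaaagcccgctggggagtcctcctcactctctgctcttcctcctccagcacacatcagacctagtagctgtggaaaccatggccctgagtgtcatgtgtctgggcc
Mmp8: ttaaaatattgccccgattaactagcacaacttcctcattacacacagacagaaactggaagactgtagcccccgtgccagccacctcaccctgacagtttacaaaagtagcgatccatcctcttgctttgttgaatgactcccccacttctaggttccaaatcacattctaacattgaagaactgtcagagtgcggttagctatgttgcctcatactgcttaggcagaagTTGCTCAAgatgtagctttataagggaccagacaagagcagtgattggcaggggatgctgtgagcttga
Slpi: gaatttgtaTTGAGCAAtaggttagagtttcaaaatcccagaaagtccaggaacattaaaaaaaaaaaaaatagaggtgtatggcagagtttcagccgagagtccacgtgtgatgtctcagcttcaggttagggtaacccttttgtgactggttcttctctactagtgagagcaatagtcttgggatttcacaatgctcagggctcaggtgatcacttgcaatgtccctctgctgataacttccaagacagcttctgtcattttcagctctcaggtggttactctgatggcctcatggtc
In Ltf the match begins 75 bases before the transcript start, in Ngp the matches begin 138 and 11 bases before it, in Mmp8 19, in Lcn2 216 and in Slpi 241. A match of letters is a description of the sequence and not evidence that a factor binds there.

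Among the iron-binding and antimicrobial members, Ltf encodes lactoferrin, the iron-binding protein of secondary granules. Its signal was 0.167 (LT-HSC), 0.166 (ST-HSC), 0.349 (progenitors) and 854 (Lin+ cells). The signal was near background in LT-HSC, ST-HSC and progenitors, although above it on every array, and the Lin+ array stood far apart. Ltf was higher in Lin+ cells than in progenitors by 11.26 ± 0.24, or 2445-fold, which ranked as 2 among 11127 genes measured on both arrays. Lcn2, which encodes lipocalin 2, a protein that captures bacterial iron carriers, gave 0.333, 0.460, 4.35 and 899 in the same order of fractions. LT-HSC and ST-HSC were close for Lcn2 (0.46 ± 0.26), progenitors lay above ST-HSC by 3.24 ± 0.22, and Lin+ cells lay above progenitors by 7.69 ± 0.20.

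Camp encodes the cathelicidin precursor, from which the antimicrobial peptide CRAMP is cut. The brighter of its 2 probes had 0.514 (LT-HSC), 0.559 (ST-HSC), 9.43 (progenitors) and 1788 (Lin+ cells), and the other had 0.287, 0.343, 4.09 and 1026. Both probes were level between the stem cell fractions and higher at each of the later steps. They gave 4.08 ± 0.21 and 3.58 ± 0.22 for progenitors over ST-HSC, and 7.57 ± 0.20 and 7.97 ± 0.20 for Lin+ cells over progenitors. Ngp, neutrophilic granule protein, belongs to the same cystatin-fold superfamily as the cathelicidins. Its signal was 0.0312 (LT-HSC), 0.0615 (ST-HSC), 0.441 (progenitors) and 527 (Lin+ cells), and it was not well above background in either stem cell fraction. Ngp was at least 4.62-fold higher in progenitors than in ST-HSC and 1193-fold higher in Lin+ cells than in progenitors (10.22 ± 0.23).

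Hp encodes haptoglobin, which binds free haemoglobin and is stored in neutrophil granules as well as secreted by the liver. Its signal climbed at every step, with 0.980 (LT-HSC), 14.8 (ST-HSC), 172 (progenitors) and 492 (Lin+ cells). It was 15.1-fold higher in ST-HSC than in LT-HSC (3.92 ± 0.21), where Ltf had -0.01 ± 0.38, ranking as 5 among 11390 genes measured on both arrays. Its last step was the smallest, 1.52 ± 0.20 for Lin+ cells over progenitors, but this value rested on the scaling and was 2.53 with quantile normalization, 2.13 with spike-in scaling and 2.09 with the median of genes of like span set to 0.

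**Figure D1:**
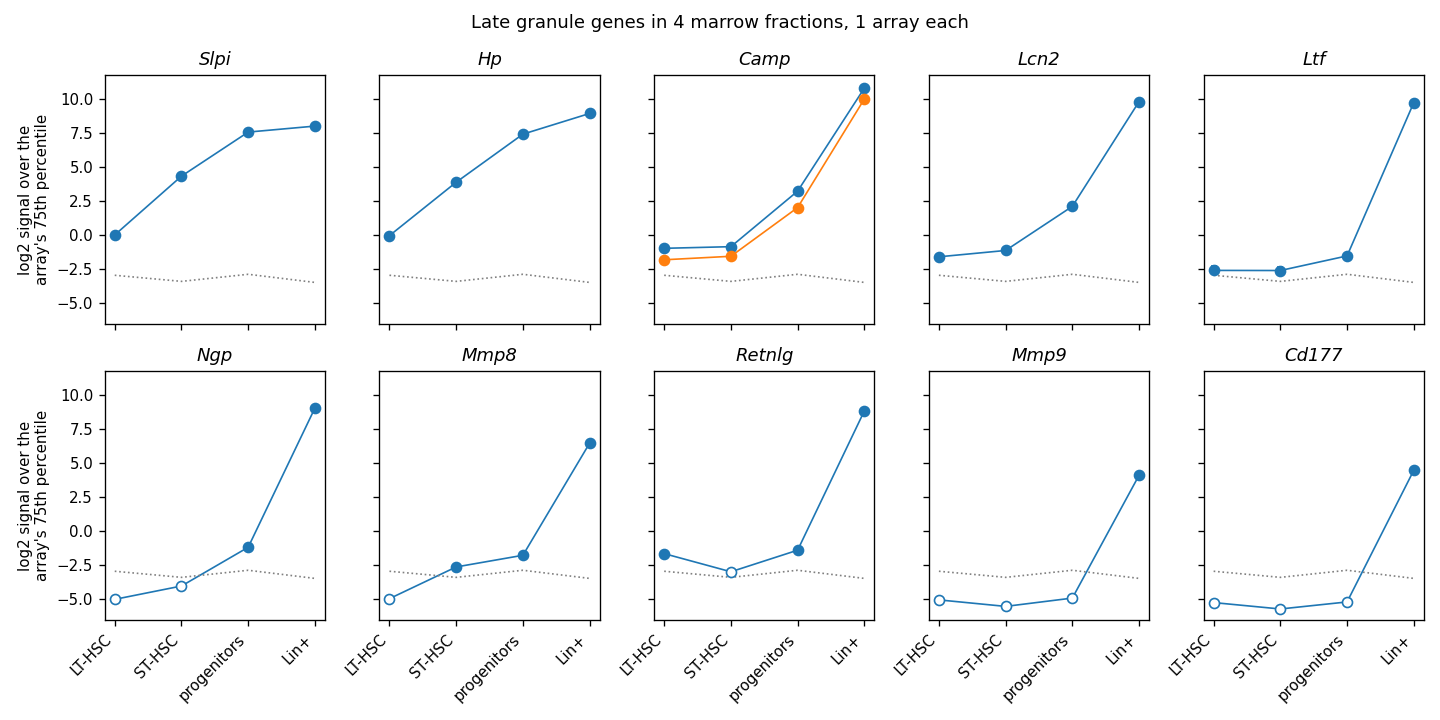
Log2 signal over the array's 75th percentile (vertical axis) of each late granule gene on the arrays of LT-HSC, ST-HSC, progenitors and Lin+ cells (horizontal axis). Filled points were well above background and open points were not, bars are the computed spot error and are mostly smaller than the points, the dotted line joins the lowest well-above-background signal of each array, and for Camp the orange line is the dimmer probe. Slpi and Hp are above the line on every array and climb from LT-HSC on, whereas Mmp9 and Cd177 are open until Lin+ cells.

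The proteases and their inhibitor did not share a profile over the fractions. Mmp8, neutrophil collagenase, had 0.0323 (LT-HSC), 0.162 (ST-HSC), 0.294 (progenitors) and 88.4 (Lin+ cells), and the LT-HSC value was not well above background. The progenitor signal of Mmp8 exceeded that of ST-HSC by 0.86 ± 0.33, below the 2-fold call, and that of Lin+ cells exceeded progenitors by 8.23 ± 0.26. Mmp9, gelatinase B and the defining protein of tertiary granules, was printed 10 times on each array, which gives the only spread between repeated spots among the members. On the Lin+ array its 10 spots ran from 16.2 through a median of 17.2 to 18.4, with a standard deviation of 0.065 on the log2 scale. None of its spots was well above background on the other arrays, where the medians were 0.0285 in LT-HSC (9 spots after 1 outlier was left out), 0.0211 in ST-HSC and 0.0302 in progenitors. Spots of the Lin+ array thus did not overlap those of any other array, and the gene was at least 126-fold higher in Lin+ cells than in progenitors and at least 132-fold higher than in LT-HSC.

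**Figure D2:**
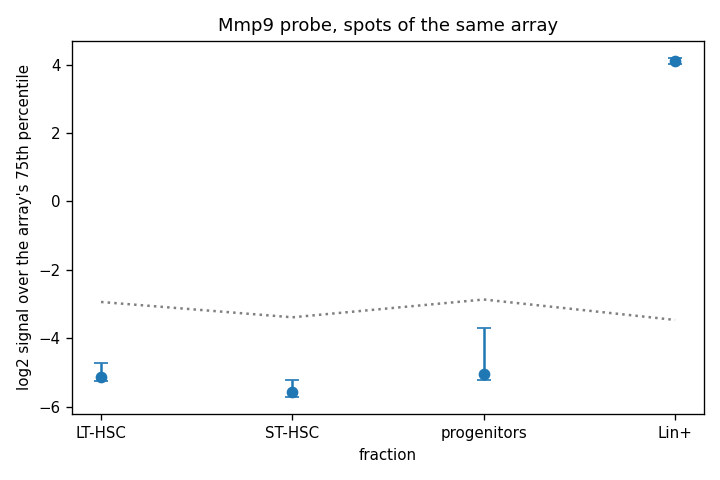
Log2 signal of the Mmp9 probe over the array's 75th percentile (vertical axis) in the 4 fractions (horizontal axis). Points are medians over the spots of an array and bars run from the lowest to the highest spot, so they show the spread within an array and not between mice, and the dotted line joins the lowest well-above-background signals. The 10 Lin+ spots lie between 4.02 and 4.20, and every other array is below the line.

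Slpi encodes the secretory leukocyte protease inhibitor, which blocks neutrophil elastase and cathepsin G. Its signal was 1.01 (LT-HSC), 20.2 (ST-HSC), 191 (progenitors) and 258 (Lin+ cells). ST-HSC exceeded LT-HSC by 4.32 ± 0.21, or 19.9-fold, which ranked as 3 among 11390 measured genes, and progenitors exceeded ST-HSC by 3.24 ± 0.20. Lin+ cells exceeded progenitors by 0.44 ± 0.20 and this was not called. That last difference depended on the scaling: it was 1.31 after quantile normalization, 1.05 with spike-in scaling and 1.01 with the median of genes of like span set to 0, each of which passes the 2-fold call. Elane and Ctsg, the elastase and cathepsin G genes that Slpi's product inhibits, were called higher together with Slpi at the first step, by 2.96 ± 0.21 and 5.74 ± 0.20, and again in progenitors over ST-HSC, by 4.61 ± 0.20 and 2.21 ± 0.20. In Lin+ cells against progenitors their differences were -1.21 ± 0.20 and -1.65 ± 0.20, and with spike-in scaling only Ctsg of these passed 2-fold.

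Of the surface and secreted members, Cd177 encodes a glycoprotein that neutrophils hold in secondary granule membranes and on their surface. Its signal was 0.0264 (LT-HSC), 0.0191 (ST-HSC), 0.0273 (progenitors) and 22.2 (Lin+ cells). It was well above background in Lin+ cells alone, where it was at least 162-fold higher than in progenitors and at least 171-fold higher than in LT-HSC. Retnlg encodes resistin-like gamma, a small secreted protein of mouse myeloid cells. Its values were 0.319 (LT-HSC), 0.127 (ST-HSC), 0.381 (progenitors) and 456 (Lin+ cells). Retnlg was 1198-fold higher in Lin+ cells than in progenitors (10.23 ± 0.25). The ST-HSC value was not well above background, but it exceeded the lowest well-above-background signal of that array (0.0955) and was used as it stood. By that value Retnlg was 2.52-fold lower in ST-HSC than in LT-HSC, and 3.00-fold higher in progenitors than in ST-HSC. These folds are estimates and not lower limits, and the spot error of the ST-HSC value alone was 0.33 on the log2 scale. These low signals moved with the background correction: with normexp the difference for ST-HSC against LT-HSC was -0.66 on the log2 scale, and that for progenitors against ST-HSC was 0.80, both below the call. With spike-in scaling the second of these was 0.96, also below it.

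Counted together, 9 of the 10 genes were called higher in Lin+ cells than in progenitors and 0 lower, with a median difference of 7.63. Over all 12987 genes tested in that comparison, 14.6% were called higher and 26.4% lower, and the median difference was -0.32. At least 16-fold higher were 8 of the 10, all but Hp and Slpi, against 1.76% of the genes tested; that fold was chosen after the values were seen. Against LT-HSC, Lin+ cells were higher for 10 of 10, each by at least 132-fold, where 16.2% of 13287 genes tested were called higher and 23.3% lower, and 10 of 10 passed 16-fold, against 2.46% of genes. This comparison does not use the progenitor array but shares the Lin+ array with the other. The folds ran from at least 132 for Mmp9 to 5113 for Ltf (12.32 ± 0.33). Ngp, Mmp8, Mmp9 and Cd177 were not well above background in LT-HSC, so they entered through the Lin+ array and could not be called lower. The 6 members measured on both arrays were all called higher. Against progenitors the same limit held for Mmp9 and Cd177, and of the members measured on both arrays Slpi alone was not called.

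Between progenitors and ST-HSC, 7 of the 8 members that were above background on either array were called higher and 0 lower, against 10.1% of 12605 genes tested higher and 10.2% lower, with a median difference of 2.72 where that of all genes was 0.17. The called members were Camp, Hp, Lcn2, Slpi, Ngp, Retnlg and Ltf, and Mmp9 and Cd177 could not be compared. Ngp and Retnlg were well above background in progenitors but not in ST-HSC, so they could be called higher but not lower. Of the 6 members measured on both arrays, 5 were called higher. Retnlg was not called with normexp or spike-in scaling, and across the scalings and normexp the number called ran between 5 and 7. Camp alone passed 16-fold, as did 0.658% of the genes tested, but its 4.08 lies close to that limit. It was under 16-fold with each other scaling and with normexp, from 3.30 to 3.92, and with the mean of its probes (3.83). Ltf passed only narrowly, at 1.07 ± 0.30, and it was under 2-fold with 6 alternatives, which were spike-in scaling (0.45), normexp (0.63), a percentile taken over probes detected throughout (0.81), the span group (0.85) or the median gene (0.87) set to 0, and median scaling (0.91). The progenitor array also showed a trend with gene length, and 6 of the 10 members (Camp, Ngp, Lcn2, Hp, Slpi and Retnlg) lie in the group with the shortest genomic spans, of 5 groups, and 0 in the longest. In progenitors against ST-HSC the median difference was 0.45 in the shortest group and -0.15 in the longest. The part of this trend in the members' differences was not separated further. With the median gene of the same span group set to 0, Camp had 3.62, Hp 3.08, Lcn2 2.79 and Slpi 2.78, and 6 members were called. Markers of granulocyte-monocyte progenitors were higher in the same comparison for 5 of 5, those of red cells for 6 of 6 and those of basophils, mast cells and eosinophils for 4 of 6. Those of megakaryocytes were higher for 6 of 6. Neutrophil markers were higher for 2 of the 5 that could be compared, S100a8 and S100a9.

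Between ST-HSC and LT-HSC, 2 of the 7 members above background on either array were called higher, Slpi and Hp, and 1 lower, Retnlg, against 5.81% and 9.06% of 12622 genes tested. Slpi alone passed 16-fold, as did 0.0317% of the genes, and with normexp it did not (3.87). Ltf (-0.01 ± 0.38), Camp (0.12 ± 0.22) and Lcn2 (0.46 ± 0.26) were measured on both arrays and lay within 2-fold. Mmp8 was at least 1.24-fold higher and Ngp, Mmp9 and Cd177 were not well above background on either array. Retnlg was well above background in LT-HSC but not in ST-HSC, and Mmp8 the reverse, so each could be called in 1 direction only. Markers of granulocyte-monocyte progenitors were higher for 5 of 5 in this comparison, and 4 of 5 monocyte markers were. The 5 granulocyte-monocyte progenitor markers (Mpo, Elane, Prtn3, Ctsg and Ms4a3) are also on the list of primary granule genes.

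**Figure D3:**
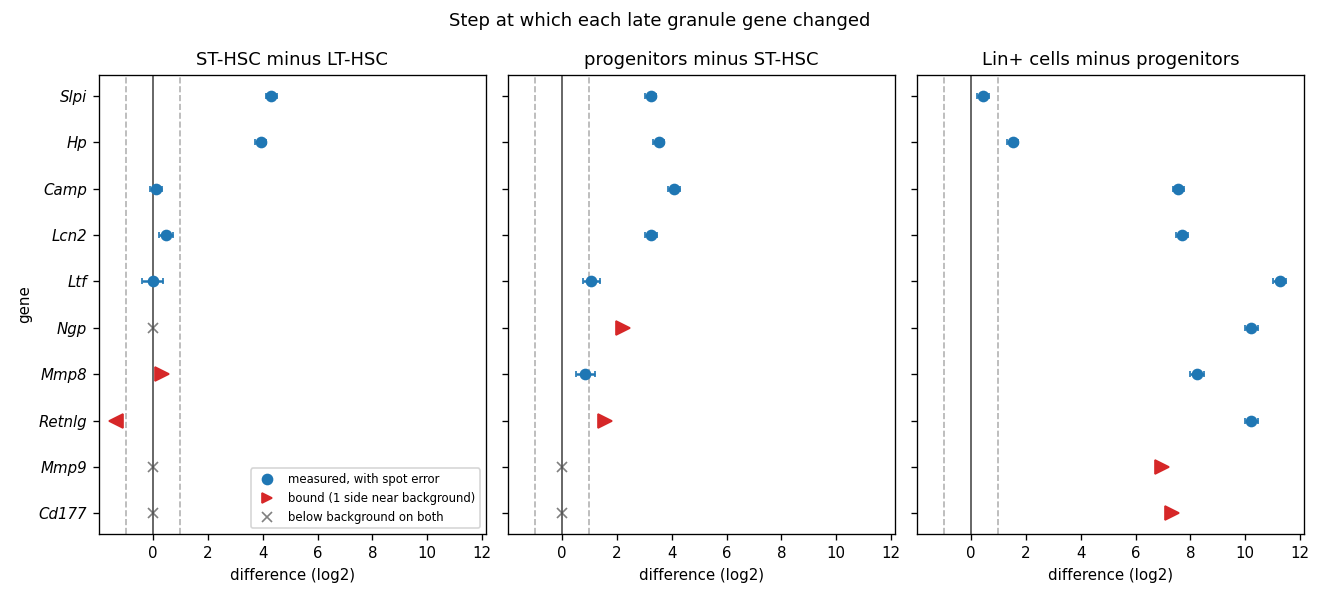
Log2 difference (horizontal axes) of each late granule gene (vertical axis) at the 3 successive steps of differentiation. Circles are measured with the computed spot error, triangles are bounds that point away from 0, crosses mark genes not well above background on either array, and dashed lines mark 2-fold. The Retnlg triangles are estimates, since its own ST-HSC signal was used. Slpi and Hp pass 2-fold at the first step, Camp and Lcn2 reach 4.08 and 3.24 at the second, and Ltf, Ngp and Retnlg exceed 10 at the last.

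Likeness between members was measured as the root mean square difference of their centred log2 profiles over the 4 fractions, with dim values at the floor. Camp and Lcn2 lay 0.33 apart, Ltf and Ngp 0.44, and Hp and Slpi 0.52. Mmp9 and Cd177 lay 0.16 apart, but 3 of their 4 values are floors. The farthest pair was Ltf and Slpi, at 4.15. With 4 points per gene this is a description of the arrays and carries no test.

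The other granule genes were described from lists. Of 30 other late neutrophil granule and membrane genes on the array, 29 could be compared between Lin+ cells and progenitors. In Lin+ cells 26 were called higher and 0 lower, with a median of 4.60, against 14.6% and 26.4% of all genes tested. Of the 20 measured on both arrays, 17 were higher. Itgb2l, an integrin subunit of mouse neutrophils, was higher by at least 370.3-fold, Fpr2 by at least 255-fold, Chil1 by at least 226-fold and Fpr1 by at least 185-fold. Each of these was well above background on the Lin+ array alone, so it could not be called lower. Chil3, the chitinase-like protein Ym1, had 0.292 (LT-HSC), 0.448 (ST-HSC), 10.6 (progenitors) and 1220.5 (Lin+ cells). Its centred profile lay 0.36 from that of Camp, nearer than any other gene outside the members among 12454 compared, all well above background on the Lin+ array. In progenitors against ST-HSC, 12 of the 20 genes of this list that could be compared were higher and 1, Padi4, lower, against 10.1% and 10.2% of all genes tested. Wfdc21, a whey acidic protein domain gene like Slpi, was at least 122-fold higher there, S100a8 higher by 5.73 ± 0.21, Chil3 by 4.56 ± 0.22 and S100a9 by 4.33 ± 0.20. Between ST-HSC and LT-HSC, 3 of 17 were higher, Ifitm6 (2.08 ± 0.30), Itgal (1.80 ± 0.22) and Ltb4r1 (1.57 ± 0.20). Of all genes tested there, 5.81% were called higher and 9.06% lower.

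Primary granule genes were read in the same way. Between ST-HSC and LT-HSC 7 of 11 that could be compared were higher and 1 lower, and between progenitors and ST-HSC 8 of 11 were higher. Of all genes tested, 5.81% were called higher and 9.06% lower in the first comparison, and 10.1% and 10.2% in the second. At the first of these steps Ctsg had 5.74 ± 0.20, Mpo 3.41 ± 0.20 and Ms4a3, a membrane protein of granulocyte-monocyte progenitors, 3.15 ± 0.21, and the gene called lower was Cd63, a granule membrane tetraspanin, at -1.11 ± 0.20. In Lin+ cells against progenitors 14.6% of all genes tested were called higher and 26.4% lower, with a median of -0.32. Of the primary granule genes 0 of 11 were higher there and 7 lower, with a median of -1.15. That count rested on the scaling: 3 were lower with normexp, 2 (Ctsg and Mpo) with the median gene set to 0, 1 (Ctsg) with spike-in scaling and 0 with quantile normalization, where 2 were higher. The list's median lay between -1.22 and -0.48 over these alternatives and median scaling, and that of the other late neutrophil genes between 3.79 and 5.21. Mpo, myeloperoxidase, had 104 (LT-HSC), 1110.2 (ST-HSC), 3058 (progenitors) and 1135 (Lin+ cells), and Elane, neutrophil elastase, had 2.24, 17.4, 424.5 and 183. In Lin+ cells against progenitors the difference was -1.43 ± 0.20 for Mpo and -1.21 ± 0.20 for Elane. With 1 array a fraction the difference between the lists has no test.

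**Figure D4:**
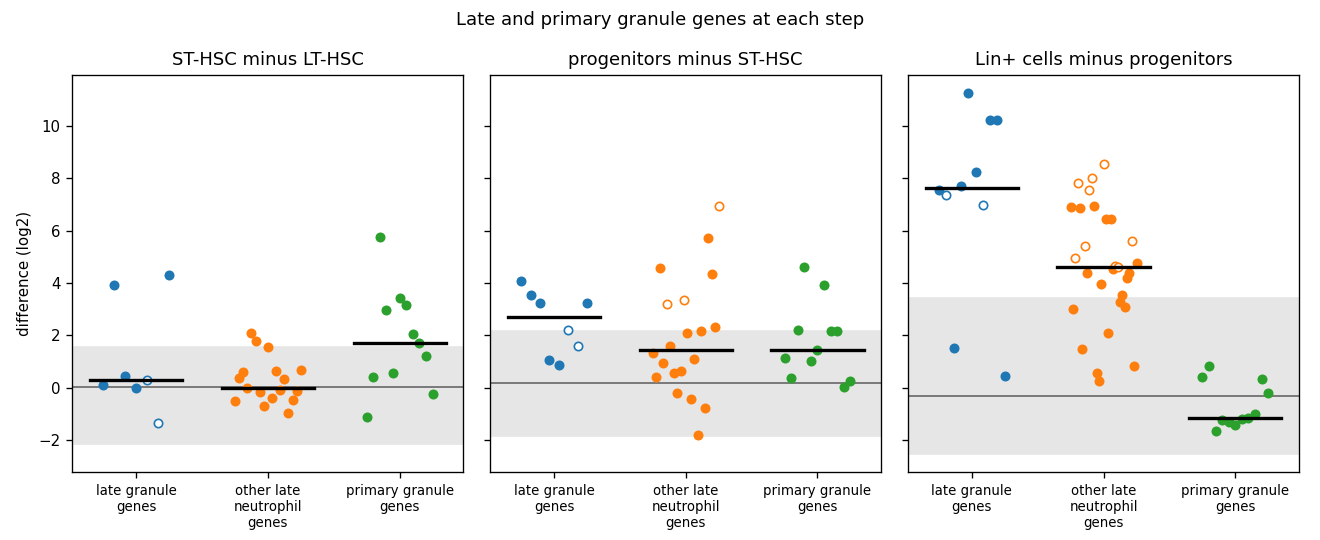
Log2 differences (vertical axis) of single genes of 3 lists (horizontal axis) at the 3 successive steps. Filled points are measured, open points are bounds, black bars are list medians, the grey line is the median of all genes tested and the grey band holds the central 95% of them. In the right panel the late granule genes have a median of 7.63, the other late neutrophil genes 4.60 and the primary granule genes -1.15 (-0.54 with spike-in scaling).

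Transcription factors of the granulocyte line were read from a list of 17. Cebpe, which encodes C/EBP epsilon, had 0.666 (LT-HSC), 2.34 (ST-HSC), 53.9 (progenitors) and 195 (Lin+ cells), higher at each step, by 1.82 ± 0.22, 4.52 ± 0.20 and 1.86 ± 0.20. Its largest step was that into progenitors, where Camp, Hp, Lcn2 and Slpi were also higher by more than 3, while Ltf was higher by 1.07 ± 0.30. None of these members had its own largest step there. Camp, Lcn2 and Ltf rose most into Lin+ cells (7.57, 7.69 and 11.26), and Hp and Slpi from LT-HSC to ST-HSC (3.92 and 4.32). Cebpa, which acts before Cebpe in the granulocyte line, had 0.948, 3.41, 6.77 and 2.48 in the 4 fractions and was lower in Lin+ cells than in progenitors (-1.45 ± 0.20). Cebpd had 6.94, 14.5, 70.1 and 91.2. In Lin+ cells against progenitors 6 of 17 were higher and 3 lower, against 14.6% and 26.4% of all genes tested. Lef1, which is also a lymphocyte factor, was higher by at least 19.2-fold, Id2 by 3.76 ± 0.21 and Klf5 by 3.48 ± 0.29, while Myc (-3.01 ± 0.14) and Myb (-1.69 ± 0.20), which mark dividing progenitors, were lower.

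Genes of proteins that bind, regulate or are cut by the members were read from a list of 20. In Lin+ cells against progenitors 8 of the 17 that could be compared were higher and 5 lower, against 14.6% and 26.4% of all genes tested. Fpr2, a receptor through which cathelicidin peptides attract cells, had 34.9 in Lin+ cells and was not well above background in the other fractions. Timp2, an inhibitor of metalloproteinases, had 21.6, 10.2, 4.94 and 21.9 in the 4 fractions, and Timp1, the main inhibitor of Mmp9, was not well above background on any array. Slc22a17, which encodes a receptor for lipocalin 2, ran against its ligand, with 6.73 (LT-HSC), 2.46 (ST-HSC), 1.39 (progenitors) and 0.550 (Lin+ cells). Cd163, the macrophage receptor for haptoglobin bound to haemoglobin, was well above background in ST-HSC alone, at 0.160. Prtn3, proteinase 3, which CD177 holds on the neutrophil surface in humans, had 9.66, 31.9, 143 and 70.6.

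For likeness to the members, the 12454 other genes well above background on the Lin+ array were compared, and all 10 members were highest on that array. The genes whose pattern was most like the median of the 10 members were chosen by the same root mean square difference. They were Vpreb3 (0.44), Hbb-b2 (0.47), Zdhhc22 (0.52), Itgb2l (0.75), Slc4a1 (0.76), Slc6a20a (0.79), Spib (0.80) and Alas2 (0.83). Itgb2l and Spib were well above background in Lin+ cells alone, Vpreb3 and Alas2 only in progenitors and Lin+ cells, and Slc4a1 not in LT-HSC. Their likeness therefore rests in part on floor values. Vpreb3 and Spib are expressed in B cells, and Hbb-b2, Slc4a1 and Alas2 in red cells. Hbb-b2 shares near-identical sequence with other beta-globin genes, so its value may include them. Only Itgb2l among the 8 was on a neutrophil list, and the others came from several mature lineages or have no lineage given here.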

How the data were processed

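RNA of 4 sorted fractions, 10 ng each, was amplified and labelled with Cy3, per the labels' protocols, and hybridised to 4 arrays on 1 slide read in 1 scan. Spot intensity values were background-subtracted processed signals from Agilent Feature Extraction 10.7.1.1, per the file headers. The series' value table was deposited by the authors as a ratio of each array's processed signal to 1 constant (191, 217, 137 and 230), which held within 1% for 100% of 55246 single-spot probes, with column medians from 0.0619 to 0.0738. It is not centred by gene.

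Processed signals were divided by each array's 75th percentile and put on the log2 scale in Python 3.11.15 (numpy 2.4.6, pandas 2.3.3). Control spots and outlier flags were left out, spots of a probe were averaged, and a gene with several probes took its brightest one. Of 55678 probes, 26762 (48.1%) were named through their accession. The number of arrays limits the precision. Alternatives were other scalings, normexp (limma 3.58.1, offset 50), filters, probe means, the value table and stricter folds; the files used held median but not mean spot signals, so normexp ran on the median. Calls were tested on simulated data with known folds. Named genes were all 10 members, up to 4 called genes of each list in each direction, or 5 where 5 or fewer were called, listed partners and markers, and the 8 genes nearest in profile. The members and lists were chosen with earlier results of these data known.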

Additional observations from a re-analysis of the deposited data

How the results depend on the processing

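With 1 array per fraction, ± values cover spot error only, no difference has a replicate check, and signals near background are limited by it rather than by the number of spots. No paired analysis was possible because every sample is labelled replicate 1 of its fraction. Across 375 recomputed member differences, 319 stayed within the interval that the spot error gives, 56 moved out of it and 0 reversed. Some of these could hardly move. The background filter and the value table repeat nearly the same values, averaging probes alters Camp alone, and leaving out the floor alters bounds only. The count of 319 is thus in part fixed by the choice of alternatives. In Lin+ cells against progenitors the number of members called higher was 9 as reported and 7 with only genes well above background on both arrays. It was 10 with quantile normalization, with spike-in scaling and with the median of the span group set to 0. Against LT-HSC that filter left 6 of 10, since the other members have only bounds. In progenitors against ST-HSC 7 were called higher, 6 with a percentile taken over probes detected throughout, median scaling, the median gene or the span group set to 0, 5 with spike-in scaling, normexp, only genes above background on both arrays and 4-fold, and 1 at 16-fold. In ST-HSC against LT-HSC 2 were called higher, and 1 at 16-fold; the 1 called lower, Retnlg, became 0 with normexp, with only genes above background on both arrays, at 4-fold and at 16-fold. The 16-fold call and the recount of the other lists were chosen after seeing the data. The median gene of Lin+ cells against progenitors lay at -0.42 as reported and at 0.19 with spike-in scaling, and that of progenitors against ST-HSC at 0.21 and -0.42. The cause of these changes was not tested.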

Other observations

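Several members lie near each other on a chromosome, so the genes between them were read in the same way. Between Camp and Ngp on chromosome 9 lie 8 protein-coding genes, of which 0 of the 7 that could be compared were called higher in Lin+ cells than in progenitors and 3 lower, with a median of -0.79. Between Ngp and Ltf lie 20, of which 2 of 11 were higher and 3 lower. Between Slpi and Mmp9 on chromosome 2 lie 34, of which 5 of 22 were higher and 5 lower, and the highest was Pltp at 3.32. Over all genes tested in that comparison, 14.6% were called higher and 26.4% lower. Prss50, a serine protease gene between Ngp and Ltf singled out after its values were seen, had 5.02 in progenitors, against a value below the background limit in ST-HSC, a difference of at least 5.72 on the log2 scale. In Lin+ cells Prss50 had 0.800, a difference of -2.65 from progenitors, while both flanking members were higher there.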
